A study of Homo sapiens with 2 samples.

Results

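ETV1, ETV4 and ETV5 form the PEA3 subfamily of ETS transcription factors, and their transcripts were followed in CL1-0, a human cell line established from lung adenocarcinoma, given an antibody to the secreted glycoprotein FSTL1. The members were all probe sets that the platform's annotation assigns to 1 of these 3 genes and to no other gene, which gave 12 probe sets of 54675 on the array, 5 for ETV1, 2 for ETV4 and 5 for ETV5. The groups are CL1-0 cells given the antibody for 0 h and CL1-0 cells given it for 6 h, with 1 Affymetrix array of total RNA each. For both groups the labels' protocols speak of puromycin selection and stable transduction, and the construct is not named. Whether this applies to the cultures on these arrays is not clear from the labels. CL1-0 is a cultured line, so both groups model tumour cells without the other cells of a lung. No untreated culture or control antibody at 6 h was analysed here, so the antibody and time in culture cannot be told apart.

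The PEA3 factors bind GGAA-centred DNA sites through a conserved ETS domain and carry an acidic activation domain that is phosphorylated downstream of receptor tyrosine kinases. Their genes are classical transcriptional outputs of the RAS to ERK pathway, and the repressor capicua, which ERK signalling inactivates, holds them down by binding octamers in their regulatory DNA. Their proteins are short-lived because the COP1 ubiquitin ligase targets them for degradation. In the developing lung, ETV4 and ETV5 act downstream of fibroblast growth factor in the epithelial buds, and ETV5 is needed to maintain alveolar type II cells.

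The DNA before the outermost ETV1 start site is shown because it holds a capicua octamer. RefSeq promoter sequences (GRCh38.p14, 250 bases before to 50 after a start) matched 1 of 3 members, ETV1, with 6 windows for alternative starts. The bases before the outermost start lie at chr7:13991426-13991675 on the minus strand, with the octamer in capitals.
ETV1: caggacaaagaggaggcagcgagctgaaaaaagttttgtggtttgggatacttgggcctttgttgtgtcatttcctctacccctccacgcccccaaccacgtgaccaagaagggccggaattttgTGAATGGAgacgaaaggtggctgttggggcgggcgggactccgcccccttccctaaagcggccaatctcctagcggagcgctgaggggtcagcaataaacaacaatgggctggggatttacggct

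The octamer TGAATGGA began 125 bases before this start, and the other ETV1 windows did not hold it. Searched on both strands as TGAATGAA or TGAATGGA, the capicua octamer was found in 2.63% of all 35116 promoter windows and in 3.22% of 27305 genes. A gene with several windows, such as ETV1, has more places for a match than a gene with 1. The PEA3 site AGGAAG was found in 2 overlapping ETV1 windows, at the same place, and in 33.6% of all windows. The ETS site CCGGAAGT (4.14% of windows), whose GGAA letters AGGAAG shares, the AP-1 site TGANTCA (7.71%), which matches its own reverse complement, the cyclic AMP response element TGACGTCA (1.85%) and the CArG box of serum response factor (1.29%) were not found in the ETV1 windows. A match describes letters in a window and not binding, and no array value here tells which ETV1 start was in use.

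Intensities below are the deposited MAS5 signals. An intensity of 45.4, the 50th percentile of all values of both arrays, was taken as an assumed floor for background. A difference is log2 of the 6 h value minus log2 of the 0 h value, after values under the floor were raised to it. Of the 12 member probe sets, 9 lay above the floor on both arrays, 1 on the 6 h array alone and 2 on neither. With 1 array at each time there is no replicate error, no test and no p-value, and this number of arrays is what limits precision. The members were chosen with this contrast known, so their differences are given as a description.

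ETV5 was higher at 6 h on its 2 brightest probe sets. On 203349_s_at, whose target is the reference transcript NM_004454, intensity was 202.1 at 0 h and 381.5 at 6 h, which is 1.89-fold. On 203348_s_at intensity was 151.7 at 0 h and 262.9 at 6 h, 1.73-fold. These sets differed from each other by 0.12 on the log2 scale. The pooled SD of sets around the mean of their gene was 0.16, over 6122 genes with 2 or more measured sets. That SD is not the spread of a difference between 2 sets, so the values are not compared. Of those 6122 genes 16 (0.261%) had at least 2 sets past 1.5-fold higher, and ETV5 is among them. Since ETV5 was chosen on this contrast, nothing is read from this share.

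The dimmer ETV5 probe sets gave smaller or bounded differences. On 216375_s_at intensity was 59.4 at 0 h and 68.2 at 6 h, a difference of 0.20. On 230102_at it was 28.4 at 0 h, under the floor, and 50.2 at 6 h, just above it. The difference of this set was at least 0.14 under the assumed floor, and the ratio of its values as given was 1.77. On 231083_at both values, 21.1 at 0 h and 18.8 at 6 h, were under the floor and have no direction here. All 4 measured ETV5 sets were higher at 6 h, with log2 differences from 0.14 to 0.92.

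ETV1 was higher at 6 h mainly on 1 probe set. On 221911_at, the brightest, intensity was 400.9 at 0 h and 683.3 at 6 h, 1.70-fold. This is also the only ETV1 set above the floor whose identifier marks it as designed for a single transcript sequence: an _x_at set may cross-hybridise to other genes, and an _s_at set is shared by several transcripts. The set 217053_x_at, which may cross-hybridise, read 73.9 at 0 h and 97.1 at 6 h, a difference of 0.39. Its neighbour 206501_x_at, targeted to NM_004956, read 90.4 at 0 h and 108.4 at 6 h, a difference of 0.26. The shared set 217061_s_at read 75.4 at 0 h and 78.1 at 6 h, a difference of 0.05. The fifth set, 221910_at, was under the floor on both arrays, at 31.9 and 36.1. The 4 measured sets therefore had the same sign and very unequal sizes.

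ETV4 differed little, and its probe sets went opposite ways. Intensity was 187.3 at 0 h and 208.1 at 6 h on 211603_s_at, a difference of 0.15. It was 199.9 at 0 h and 194.5 at 6 h on 1554576_a_at, a difference of -0.04. The mean log2 levels of these sets are nearly equal (7.63 and 7.62), so which of them stands for the gene is close to arbitrary. With quantile scaling, or without _x_at and _s_at sets, 1554576_a_at was taken and the sign turned (-0.10 and -0.04). A direction for ETV4 is not settled by these arrays.

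**Figure D1:**
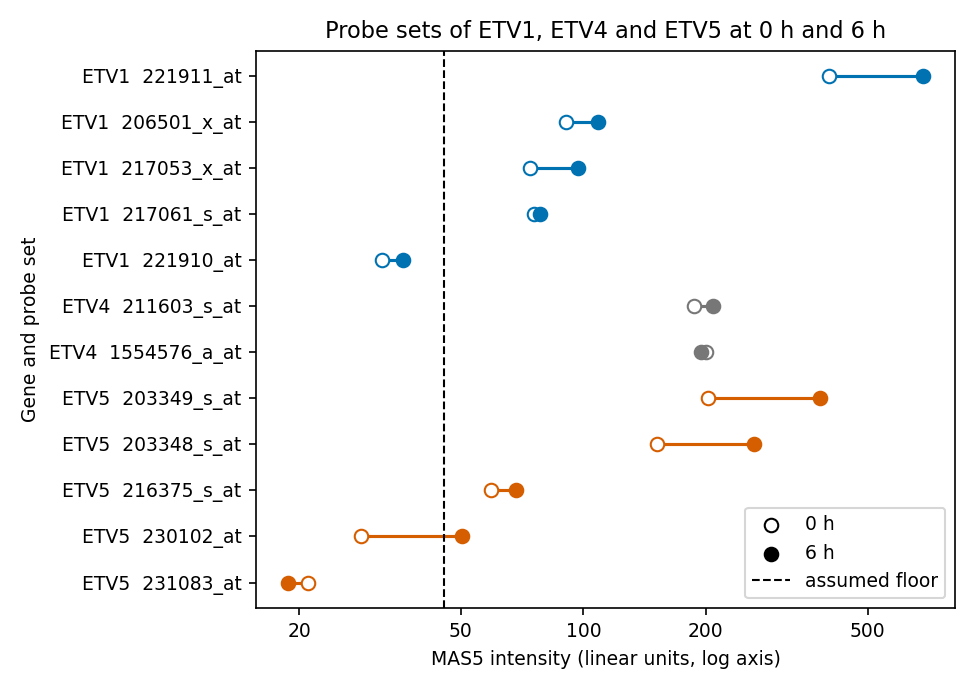
Intensity of each of the 12 probe sets of ETV1 (blue), ETV4 (grey) and ETV5 (orange), on a log axis, at 0 h (open circle) and 6 h (filled circle), with 1 array per time and the assumed floor of 45.4 dashed. The bright ETV5 sets and ETV1 221911_at have long lines to the right, and both ETV4 sets lie near 200 with hardly any.

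Differences of this size were uncommon on these arrays. Represented by its brightest probe set, ETV5 had the 10th highest and ETV1 the 30th highest log2 difference of 12669 measured genes, and ETV4 the 2872nd. Of the members 2 of 3 genes and 3 of 10 measured probe sets were at least 1.5-fold higher, where 0.75% of measured genes and 0.761% of measured probe sets with 1 gene name were. Those lower by that much were 0.182% of genes and 0 of 3 members. At 2-fold, which 0 members reached, 0.0316% of genes were higher. Since the members were chosen on this contrast, nothing is read from these shares.

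Brightness bears on the size of a difference. Among the brighter genes, with a mean log2 intensity of at least 8.50, 0.3% were 1.5-fold higher, against 1.2% of the dimmer genes. ETV1 on 221911_at, with a mean of 9.03, lies among the brighter genes, and ETV5 on 203349_s_at, with a mean of 8.12, among the dimmer.

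**Figure D2:**
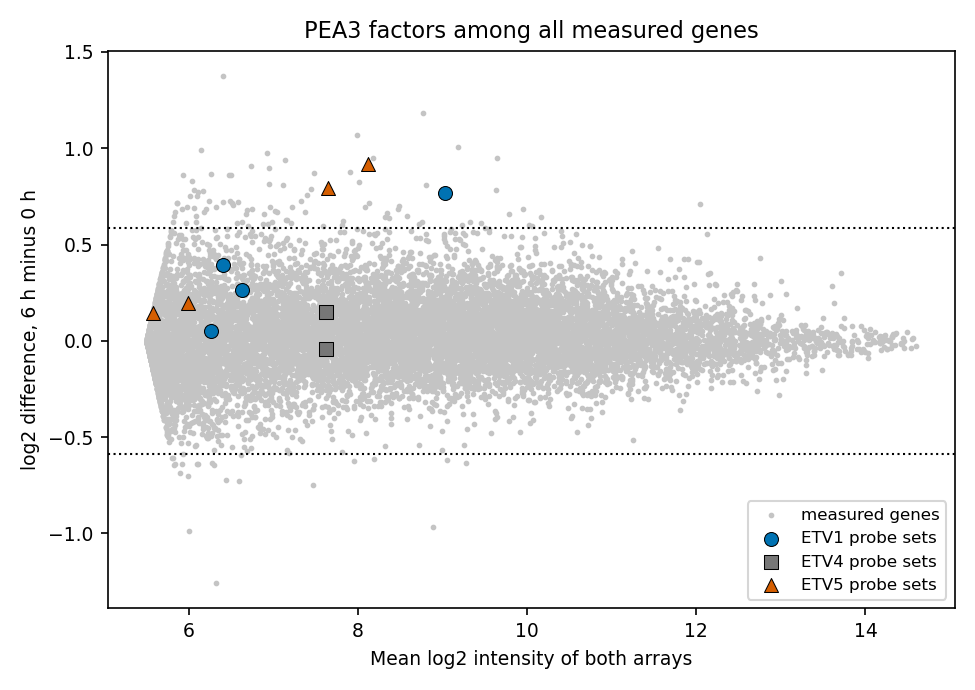
log2 difference (6 h minus 0 h) against mean log2 intensity for 12669 measured genes, each by its brightest probe set (grey), with the measured probe sets of ETV1 (circles), ETV4 (squares) and ETV5 (triangles). Dotted lines mark 1.5-fold. The 3 member sets above the upper line are 2 of ETV5 (0.92 and 0.79) and 1 of ETV1 (0.77), while the dim sets of both genes lie inside the grey cloud.

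Probe sets of ETV1 and ETV5 disagreed in size. The range of log2 differences over measured sets was 0.72 for ETV1 and 0.77 for ETV5. The median range was 0.33 over the 1091 genes with at least 4 measured sets, and 3.21% and 2.47% of them had a range at least as wide. Both genes were chosen on this contrast, so nothing is read from these shares. In ETV1 the brightest set had the largest difference and the 3 dimmer sets smaller ones. In ETV5 the low end of the range is the bound of 230102_at, and the next lowest set, 216375_s_at, was at 0.20. The part of dim signal near background in this disagreement was not tested. The median of a gene's measured sets, the mean of the middle pair for an even number, was also taken in place of the brightest. With it ETV1 was at 0.33, under 1.5-fold, and ETV5 at 0.50 or more, since the bound enters it. Without _x_at and _s_at sets ETV5 rested on 230102_at alone, at least 0.14, and ETV1 kept its value of 0.77. The floor was also lowered to the 40th percentile, in settings added after the data were seen. ETV5 was then at 0.76 for the median and 0.72 for 230102_at alone, both past 1.5-fold, and the median of ETV1 was 0.26.

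**Figure D3:**
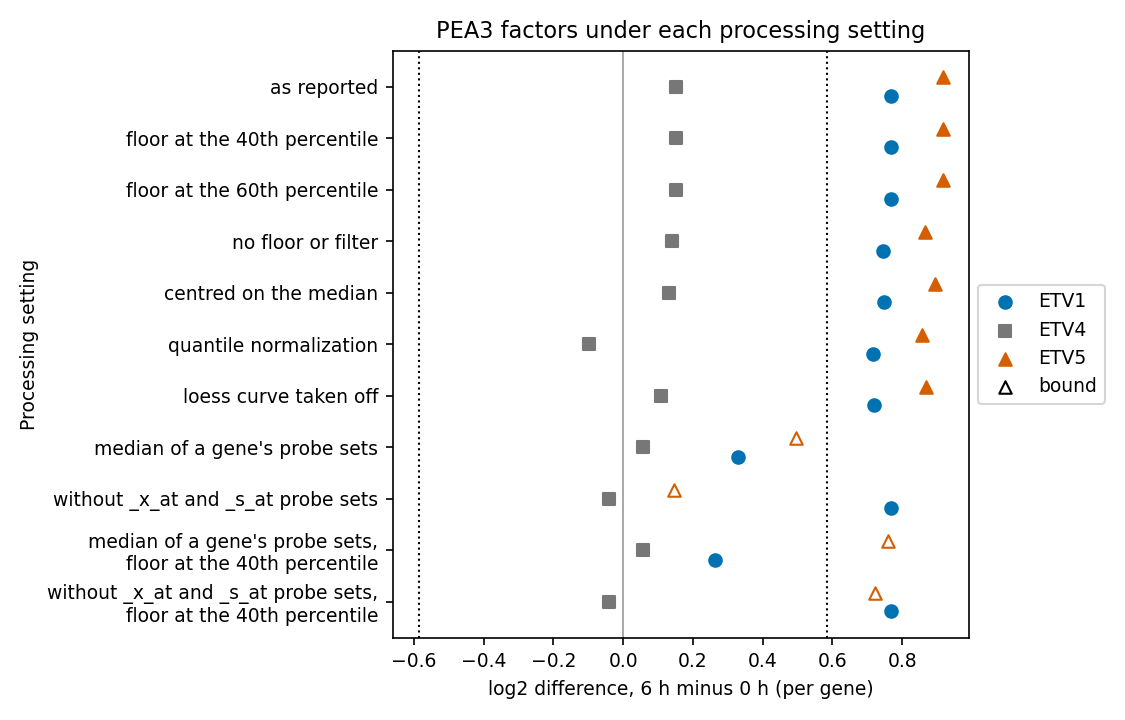
log2 difference (6 h minus 0 h) of ETV1 (circles), ETV4 (squares) and ETV5 (triangles) as reported and under each of 10 processing alternatives, with 1.5-fold dotted and open symbols for values that rest on a set raised to the floor on 1 array. ETV1 and ETV5 lie right of the upper line under every floor and scaling tried with the brightest set. ETV1 lies left of it when the median of its sets stands for the gene (0.33 and 0.26). The open ETV5 symbols, which are bounds, move from 0.50 and 0.14 to 0.76 and 0.72 with the lower floor.

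The genes nearest to each member in the plane of both intensities were found by Euclidean distance on log2 values, over 2 arrays. This places probe set signals side by side and says nothing of relative transcript amounts. Nearest to ETV5 were the stress sensor SESN2 (208.7 to 403.1, distance 0.09), the coagulation inhibitor TFPI (219.6 to 360.1) and the zinc finger gene ZFP69B (212.9 to 344.5). Nearest to ETV1 were WWTR1, which encodes the YAP partner TAZ (427.8 to 628.9, distance 0.15), DIDO1 (427.6 to 623.9) and the MAP kinase phosphatase DUSP1 (447.9 to 670.4). Probe sets of DIDO1 and DUSP1 disagreed in sign, with ranges from -0.75 to 0.55 and from -0.17 to 0.59. ETV4 had RSKR, MID1IP1 and DBNDD1 nearest, all with differences between 0.14 and 0.18.

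The other ETS factors showed no member past 1.5-fold in either direction. Over all measured genes 0.75% were higher and 0.182% lower by that much, so a count of 0 is near the background. Of 25 listed, 16 were measured, with 10 higher and 6 lower (over all measured genes 54.3% were higher and 45.7% lower). The median difference was 0.03, against 0.02 over all genes, and it lay between -0.003 and 0.08 over the alternatives. ETV6, a repressor with a pointed domain, read 161.3 at 0 h and 224.7 at 6 h, a difference of 0.48 with 3 sets between 0.22 and 0.48. ELK3, a ternary complex factor that ERK phosphorylates, read 393.4 and 531.3 (0.43). ELF1 read 313.8 and 408.6 (0.38) with both sets alike, and ETV3 857.0 and 1105 (0.37), with its other set at 0.10. SPDEF, an ETS factor of secretory epithelium, was at 0.28 on its brightest set and had 5 sets between -0.15 and 0.28. On the brightest set of each gene the highest of these differences, 0.48, lies below those of ETV1 and ETV5. That value is, however, above the median of 0.33 over ETV1's measured sets, though it is itself the highest of ETV6's 3 sets. Without _x_at and _s_at sets ETV5 has only a lower bound, 0.14, or 0.72 with the floor at the 40th percentile. Whether ETV6 or ETV5 is higher there is not settled.

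Transcriptional output and feedback of MAP kinase signalling, the group to which the PEA3 genes are usually counted, had a higher median than all genes, with 0 members past 1.5-fold. Of 17 listed genes 14 were measured, 11 higher and 3 lower, with a median of 0.26 against 0.02 over all genes. Among all measured genes 54.3% were higher and 45.7% lower. At least 1.5-fold higher were 0.75% and lower 0.182%, so a count of 0 is near the background. The receptor kinase EPHA2 read 494.3 at 0 h and 709.9 at 6 h (0.52), and the immediate early factor EGR1 379.5 and 542.8 (0.52) with 3 sets between 0.16 and 0.67. Sprouty proteins are feedback inhibitors of receptor signalling: SPRY4 read 155.3 and 213.0 (0.46), and SPRY1 67.2 and 92.0 (0.45), with its other set at 0.17. PHLDA1, a pleckstrin homology-like protein, went the other way, from 87.8 to 65.8 (-0.42). Named after its values were seen, DUSP6, an ERK phosphatase and feedback inhibitor, read 3569 and 4746 (0.41), with 3 sets between 0.32 and 0.61. The median was 0.10 with no floor or filter, and without _x_at and _s_at sets DUSP6 passed 1.5-fold (0.61). The list was known from earlier results of these data to lie high, so it is no independent support.

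The octamer search was also run over this list, since capicua is known to repress several of its genes. Promoter windows were found for 11 of the 17 genes, and 2 of them held the octamer, EPHA2 and SPRED3, beside 3.22% of all genes. Of the described target genes 0 of 11 with a window held it, and of the other ETS factors 1 of 21, SPDEF. These counts are small and are given as a description. SPRED3, a relative of the Sprouty inhibitors named after its values were seen, read 154.8 at 0 h and 141.4 at 6 h (-0.13), opposite in sign to EPHA2. The sites are shown beside that of ETV1, from RefSeq (GRCh38.p14), with the octamer in capitals, at chr7:13991534-13991559 (minus strand), chr1:16156087-16156112 (minus strand) and chr19:38389590-38389615 (plus strand).
ETV1: ggaattttgTGAATGGAgacgaaagg
EPHA2: cgcagggcaTGAATGAAcaggagtcg
SPRED3: tgatttttgTGAATGAAatgctctct

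Genes that act on the PEA3 factors differed little as groups. In the capicua complex, the repressor CIC read 235.9 at 0 h and 252.2 at 6 h (0.10), its partner ATXN1L 2007 and 2182 (0.12), and ATXN1 was under the floor. Among the COP1 ligase and its adaptors (6 of 7 measured, 3 higher and 3 lower, median 0.007), the substrate-recruiting COP1 itself read 903.9 and 916.7 (0.02). The pseudokinase TRIB3 read 700.0 and 1022 (0.55), with its other set at 0.32. The scaffold CUL4A read 1350 and 1626 (0.27, 4 sets between -0.08 and 0.34), DET1 215.1 and 182.5 (-0.24) and DDB1 1988 and 1878 (-0.08). None of these passed 1.5-fold, where 0.75% of all measured genes were higher and 0.182% lower by that much. Transcript levels do not show the amount of PEA3 protein.

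Of 8 listed coactivators and partners 5 were measured, 4 higher and 1 lower, with a median of 0.27. Among all measured genes 54.3% were higher and 45.7% lower, and 0.75% were at least 1.5-fold higher. JUN, the AP-1 subunit that cooperates with PEA3 factors on composite sites, was the only one past 1.5-fold, from 67.2 to 122.0 (0.86). This rested on 201464_x_at, a set that may cross-hybridise, and the other 3 sets of JUN were under the floor on both arrays. The acetyltransferases EP300 and CREBBP, coactivators of ETV1 among others, read 860.9 and 1104 (0.36) and 998.9 and 1200 (0.27), with both sets of each higher. FOS was under the floor at 0 h and reached 53.7 at 6 h, a difference of at least 0.24. USF1 was lower, at 242.8 and 210.5 (-0.21).

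Upstream of the members, receptor tyrosine kinases (11 of 14 measured, 8 higher and 2 lower) had a median of 0.10, with 0 past 1.5-fold. Among all measured genes 54.3% were higher and 45.7% lower. At least 1.5-fold higher were 0.75% and lower 0.182%, so a count of 0 is near the background. FGFR4, a fibroblast growth factor receptor, read 207.3 at 0 h and 310.0 at 6 h (0.58), just under 1.5-fold, but its 4 sets lay between -0.14 and 0.58. ERBB3, named after its values were seen, read 66.6 on both arrays and so counts in neither direction. IGF1R was at 0.40 with sets between -0.14 and 0.40, RET at 0.32, FGFR2 at 0.21 with sets between -0.28 and 0.23, and FGFR3 at -0.26 (561.9 to 469.0). Of the RAS to ERK cascade 13 of 20 listed genes were measured, with 8 higher, 5 lower and a median of 0.04. The kinase RPS6KA2 was at -0.31 (85.2 to 68.6), with its other set at -0.09. The exchange factor SOS1 was at 0.24 (972.2 to 1150, 4 sets between 0.07 and 0.24), RPS6KA5 at 0.17, RPS6KA1 at 0.15 and HRAS at -0.12. Such transcript levels give no reading of kinase activity.

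Genes described as targets of PEA3 factors, mostly of invasion and the matrix had a median near that of all genes. Of 16 listed, 7 were measured, with 3 higher, 4 lower, 0 past 1.5-fold and a median of -0.04 (0.02 over all genes). Among all measured genes 54.3% were higher and 45.7% lower. At least 1.5-fold higher were 0.75% and lower 0.182%, so a count of 0 is near the background. The urokinase receptor PLAUR read 94.1 at 0 h and 113.8 at 6 h (0.27), with its other set at -0.08. The membrane protease MMP14 read 111.1 and 122.3 (0.14), with 3 sets between -0.26 and 0.23. Osteopontin (SPP1) was at -0.08 (1323 to 1256), the adhesion molecule ICAM1 at -0.07 and the gelatinase MMP9 at -0.06, and the last pair lay near the floor. The other 9 listed targets, among them MMP1, MMP2, MMP7, MMP13 and PTGS2, were under the floor on both arrays. The median was 0.14 without _x_at and _s_at sets, so its sign is not settled. The antibody's target FSTL1 read 58.3 and 52.8 (-0.14), close to the floor.

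**Figure D4:**
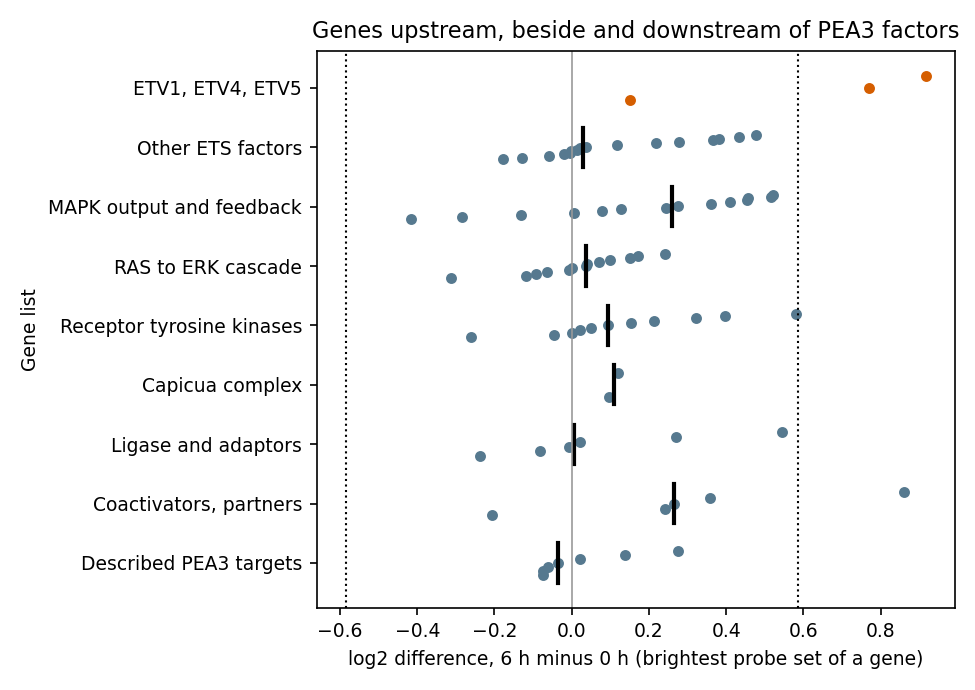
log2 difference (6 h minus 0 h) of each measured gene by its brightest probe set, for the 3 PEA3 genes (orange) and 8 gene lists (blue), with black bars at list medians and dotted lines at 1.5-fold. ETV5 (0.92), JUN (0.86) and ETV1 (0.77) lie past the upper line, the MAPK output list has its median at 0.26 and the described targets theirs at -0.04.

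Both arrays had similar overall signal, with a median intensity of 45.8 at 0 h and 44.9 at 6 h. The labels name the cells as alveolar type II. Of 10 listed markers of that type 8 had a probe set of their own, and 5 were above the floor. ABCA3, the lipid transporter of lamellar bodies, read 173.4 at 0 h and 207.9 at 6 h, and the brightest set of surfactant protein B (SFTPB) 103.8 and 132.7. Of these 5 markers 4 were higher and 1, SFTPC, lower (113.3 to 92.3), where 54.3% of all measured genes were higher. Their median was 0.26, the same to 2 decimals as that of the MAPK output list. Probe sets of SFTPB lay between -0.39 and 0.35, those of NKX2-1 between -0.18 and 0.28 and those of SFTPC between -0.30 and 0.02. NAPSA, at 51.1 and 61.0, lay near the floor. The part of these marker differences in the other results was not tested. SFTPD, LAMP3 and SLC34A2 were under the floor on both arrays. Of 5 epithelial markers KRT18 (148.2 and 120.9) and KRT8 (48.1 and 52.4) were above it, and EPCAM, KRT19 and CDH1 under it on both arrays. All 3 leukocyte markers with a probe set of their own were under the floor too. Of 6 fibroblast markers COL1A1 and DCN passed it. COL1A1 read 230.1 and 179.4 on its brightest set, with 2 measured sets at -0.36 and 0.94. DCN, at 50.5 and 41.1, was above the floor at 0 h alone. Of 5 endothelial markers PECAM1 alone passed, at 73.5 and 54.5.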

How the data were processed

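Total RNA of 2 cultures was hybridised to Affymetrix arrays, 1 per time. The deposited values are intensity per probe set on a linear scale. MAS5 is named per the submitters' processing notes; its version, parameters and any scaling between arrays are not given in the sources used here. This method subtracts local background and mismatch signal, so dim values are noisy. The mean without the top and bottom extremes was 256.4 at 0 h and 262.1 at 6 h.

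Probe sets were named through the platform annotation (41091 with 1 gene, 1801 with several, control sets left out), with symbols updated by Entrez identifier through a RefSeq table. Values under 45.4 were raised to that floor, a set above it on at least 1 array counted as measured, and a gene took its set with the highest mean log2. Genes past 1.5-fold were counted. Python 3.11.15, pandas 2.3.3 and statsmodels 0.14.6 were used, and the steps were tested on simulated data.

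The members and all gene lists were chosen with earlier results of these data known. Named are all member sets, up to 5 genes of each of 8 lists with the largest absolute difference and any past 1.5-fold, the 3 genes nearest each member, FSTL1 and SPP1; others are said to be so. Listed genes without a probe set of their own name were not analysed here. Alternatives were a lower (40th percentile) or higher (60th) floor, all values unfiltered as log2(value + 16), centring on the median, quantile scaling, a loess curve (span 0.3), the median of a gene's sets, and leaving out _x_at and _s_at sets. The last pair was also run with the lower floor, added after the data were seen.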

Additional observations from a re-analysis of the deposited data

How the results depend on the processing

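With no replicates, a value was taken to have moved where it differed from the reported one by more than 0.16, the SD between probe sets of a gene, and a count where it changed by over 1.5 times. Of the values recomputed under the alternatives, 219 did not move and 16 did. With the median of a gene's sets, ETV1 was at 0.33 and ETV5 at 0.50 (a bound). With the floor also at the 40th percentile, added after the data were seen, this median was 0.26 for ETV1 and 0.76 for ETV5. Without _x_at and _s_at sets ETV5 was at 0.14 (a bound; 0.72 with the lower floor, also added), ETV4 at -0.0396 under either floor and the described targets at a median of 0.14, while 1 gene of the MAPK output list (DUSP6) and 0 coactivators were past 1.5-fold. Quantile scaling put ETV4 at -0.10. In these settings another probe set stood for ETV4 or ETV5. The dim ETV5 set 230102_at was at 0.72 under the 40th percentile floor and at 0.58 with no floor. Over the floors and scalings tried, ETV1 221911_at lay between 0.72 and 0.77, ETV5 203349_s_at between 0.86 and 0.92 and ETV5 203348_s_at between 0.73 and 0.79. Genes 1.5-fold lower, 23 as reported, numbered 41 and 10 with the floor at the 40th and 60th percentile and 11 with no floor, where the number of genes measured also changed. No paired analysis was possible because each time has 1 array. Leaving out a replicate could not be run for the same reason. Signal over background is a further limit: 3 of the 12 sets were under the assumed floor on at least 1 array.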
